A study of Mus musculus with 22 samples.

Results

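Crym and the genes that handle thyroid hormone were followed in the prefrontal cortex (PFC) of mice given EtOH, with or without the poly(ADP-ribose) polymerase inhibitor ABT-888. The set held 7 of the 39056 genes of the count table: Crym, Dio2, Slco1c1, Ttr, Thra, Thrb and Hr. Crym was selected on measured values, because the effect of EtOH on it differed between ribosome-bound and total RNA, and the other 6 genes were chosen for their known function. The contrasts of EtOH with Control are therefore given here as values with no test, for all 7 genes, and every contrast that shares those libraries is given with no test for Crym.

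Thyroid hormone reaches the brain mostly as thyroxine (T4), a prohormone. Transthyretin, the product of Ttr, carries T4 in blood and in the fluid made by the choroid plexus, and the transporter encoded by Slco1c1 takes T4 up at brain endothelium and in astrocytes. Astrocytes then convert T4 into the active hormone T3 through the deiodinase encoded by Dio2. Neurons hold the hormone in the cytosol through the T3-binding protein μ-crystallin, encoded by Crym, and read it in the nucleus through the receptors encoded by Thra and Thrb. The protein encoded by Hr, Hairless, is a corepressor of those receptors, and the Hr gene is itself switched on by T3.

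The animals were 11 male mice of 8 to 12 weeks on a C57BL/6J background, all transgenic for the tagged ribosomal protein EGFP-Rpl10a driven through a tetracycline transactivator by the CaMKIIα promoter. All mice were injected intraperitoneally 2 times a day, 2 h apart, over 4 days. Control mice (n = 3) received normal saline, EtOH mice (n = 4) received 2 g/kg EtOH per day, and EtOH + ABT-888 mice (n = 4) received the same EtOH plus 25 mg/kg ABT-888 on day 4. PFC was taken 2 h after the last injection, and no group received ABT-888 without EtOH. Each mouse gave a TRAP library, of RNA pulled down with an anti-EGFP antibody, and a total-RNA library from the same homogenate. The sample titles give no mouse number, so the libraries of a mouse were matched by their order in the titles. TRAP and total-RNA libraries held 6570957 to 22002618 and 22132534 to 32421392 counted reads.

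The TRAP libraries were checked against markers of the labelled cell type. Of 6 pyramidal neuron markers, all were detected but 5 were lower in Control_TRAP than in Control_total-RNA and 0 were higher. Of 10 markers of striatal projection neurons, all 10 were higher in TRAP, with a median log2 fold change of 2.98. Their summed level was 9842 to 13794 CPM (counted reads scaled to a common library size) in the 11 TRAP libraries and 978 to 2058 CPM in the 11 total-RNA libraries. All 8 astrocyte and 7 endothelial markers were lower in TRAP, with medians of -3.25 and -2.93 on the log2 scale. In bulk tissue, fewer cells of a type and less RNA per cell cannot be told apart. Levels below are normalized CPM, with library sizes adjusted by the trimmed mean of M-values.

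Positions are given on the mm10 build. Crym is at chr7:120186380-120202111 on the minus strand and Dio2 at chr12:90724552-90738438 on the minus strand. Thra is at chr11:98740638-98769006, Slco1c1 at chr6:141524368-141570177, Thrb at chr14:17660261-18038090 and Hr at chr14:70552212-70573548, all on the plus strand. The last exons of Thra and of Nr1d1, a clock gene on the opposite strand, share 263 bases, and Dio2 shares 100 exonic bases with the opposite-strand RNA gene Gm26512. The strand setting of the counting was not given in the sources used here, so reads within these overlaps cannot be told apart. Thrb overlaps 3 genes on the opposite strand, with 0 shared exonic bases.

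RefSeq promoter sequence of the GRCm38.p6 build was matched for 3 of the 7 genes. The 250 bases before the RefSeq transcription start are shown for them because they are the hormone genes with sequence at hand: a T4 converter, a receptor and a T4 transporter. These RefSeq starts differ from the gene boundaries given above, and motif positions are counted from the RefSeq start. The cyclic AMP response element TGACGTCA, which is known in the Dio2 promoter, was searched on both strands, as were the receptor half-site AGGTCA, the direct repeat of this half-site with 4 bases between and the clock E-box CACGTG. Capitals mark a match.
Dio2, chr12:90739039-90739288, minus strand: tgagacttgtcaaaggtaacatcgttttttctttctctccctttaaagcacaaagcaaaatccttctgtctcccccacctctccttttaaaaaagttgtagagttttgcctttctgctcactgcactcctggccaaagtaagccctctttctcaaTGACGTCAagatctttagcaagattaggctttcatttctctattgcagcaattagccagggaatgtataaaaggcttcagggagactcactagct
Thrb, chr14:17660710-17660959, plus strand: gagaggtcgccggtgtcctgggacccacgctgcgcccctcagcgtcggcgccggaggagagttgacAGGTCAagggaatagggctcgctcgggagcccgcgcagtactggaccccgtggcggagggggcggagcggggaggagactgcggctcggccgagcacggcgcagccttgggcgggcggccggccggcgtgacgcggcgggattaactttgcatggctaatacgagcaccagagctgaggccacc
Slco1c1, chr6:141524104-141524353, plus strand: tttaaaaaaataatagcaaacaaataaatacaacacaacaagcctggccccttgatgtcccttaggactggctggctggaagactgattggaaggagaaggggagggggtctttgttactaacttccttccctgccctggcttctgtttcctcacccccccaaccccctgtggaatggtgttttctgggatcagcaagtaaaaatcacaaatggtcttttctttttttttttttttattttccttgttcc
The Dio2 window held TGACGTCA at position -95 from the start, a motif found in 1.55% of 32851 promoter windows of the same length. The window of the upstream Thrb start held AGGTCA at position -184, and 14% of all windows held this half-site on either strand. At the downstream Thrb start, at chr14:17981394-17981643, CACGTG was found at position -193, against 6.02% of all windows. The Slco1c1 window held none of the motifs, and the half-site repeat was in none of the windows of these 3 genes and in 0.0152% of all windows. A match is a match of letters and was not tested as a binding site.

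Per length of exon, the genes differed widely in level. Thra, the more abundant receptor, led in each of the 6 groups, from 105 ± 5.23 CPM per kb (SD, n = 3) in Control_total-RNA to 247 ± 49.4 CPM per kb (SD, n = 4) in EtOH_TRAP. Crym was in the fourth place in Control_total-RNA at 21.1 ± 1.75 CPM per kb, behind Dio2 and behind Ttr, whose mean of 31.4 ± 44.8 CPM per kb was set by mouse 4, and in the third place in Control_TRAP at 8.73 ± 2.60 CPM per kb. It was in the second place in EtOH_TRAP at 42.6 ± 16.7 CPM per kb and in EtOH + ABT-888_TRAP at 26.7 ± 4.68 CPM per kb, above Thrb in both, with no overlap between the libraries of the 2 genes. It was also second in EtOH_total-RNA at 24.8 ± 4.71 CPM per kb and in EtOH + ABT-888_total-RNA at 23.6 ± 0.878 CPM per kb. The lowest place was held by Slco1c1 in the 3 TRAP groups, at 0.199 to 0.552 CPM per kb, and by Hr in the 3 total-RNA groups, at 1.84 to 2.88 CPM per kb. Neighbours in this order overlapped in several places, for example Hr and Ttr in Control_TRAP and Slco1c1 and Hr in EtOH_total-RNA.

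**Figure D1:**
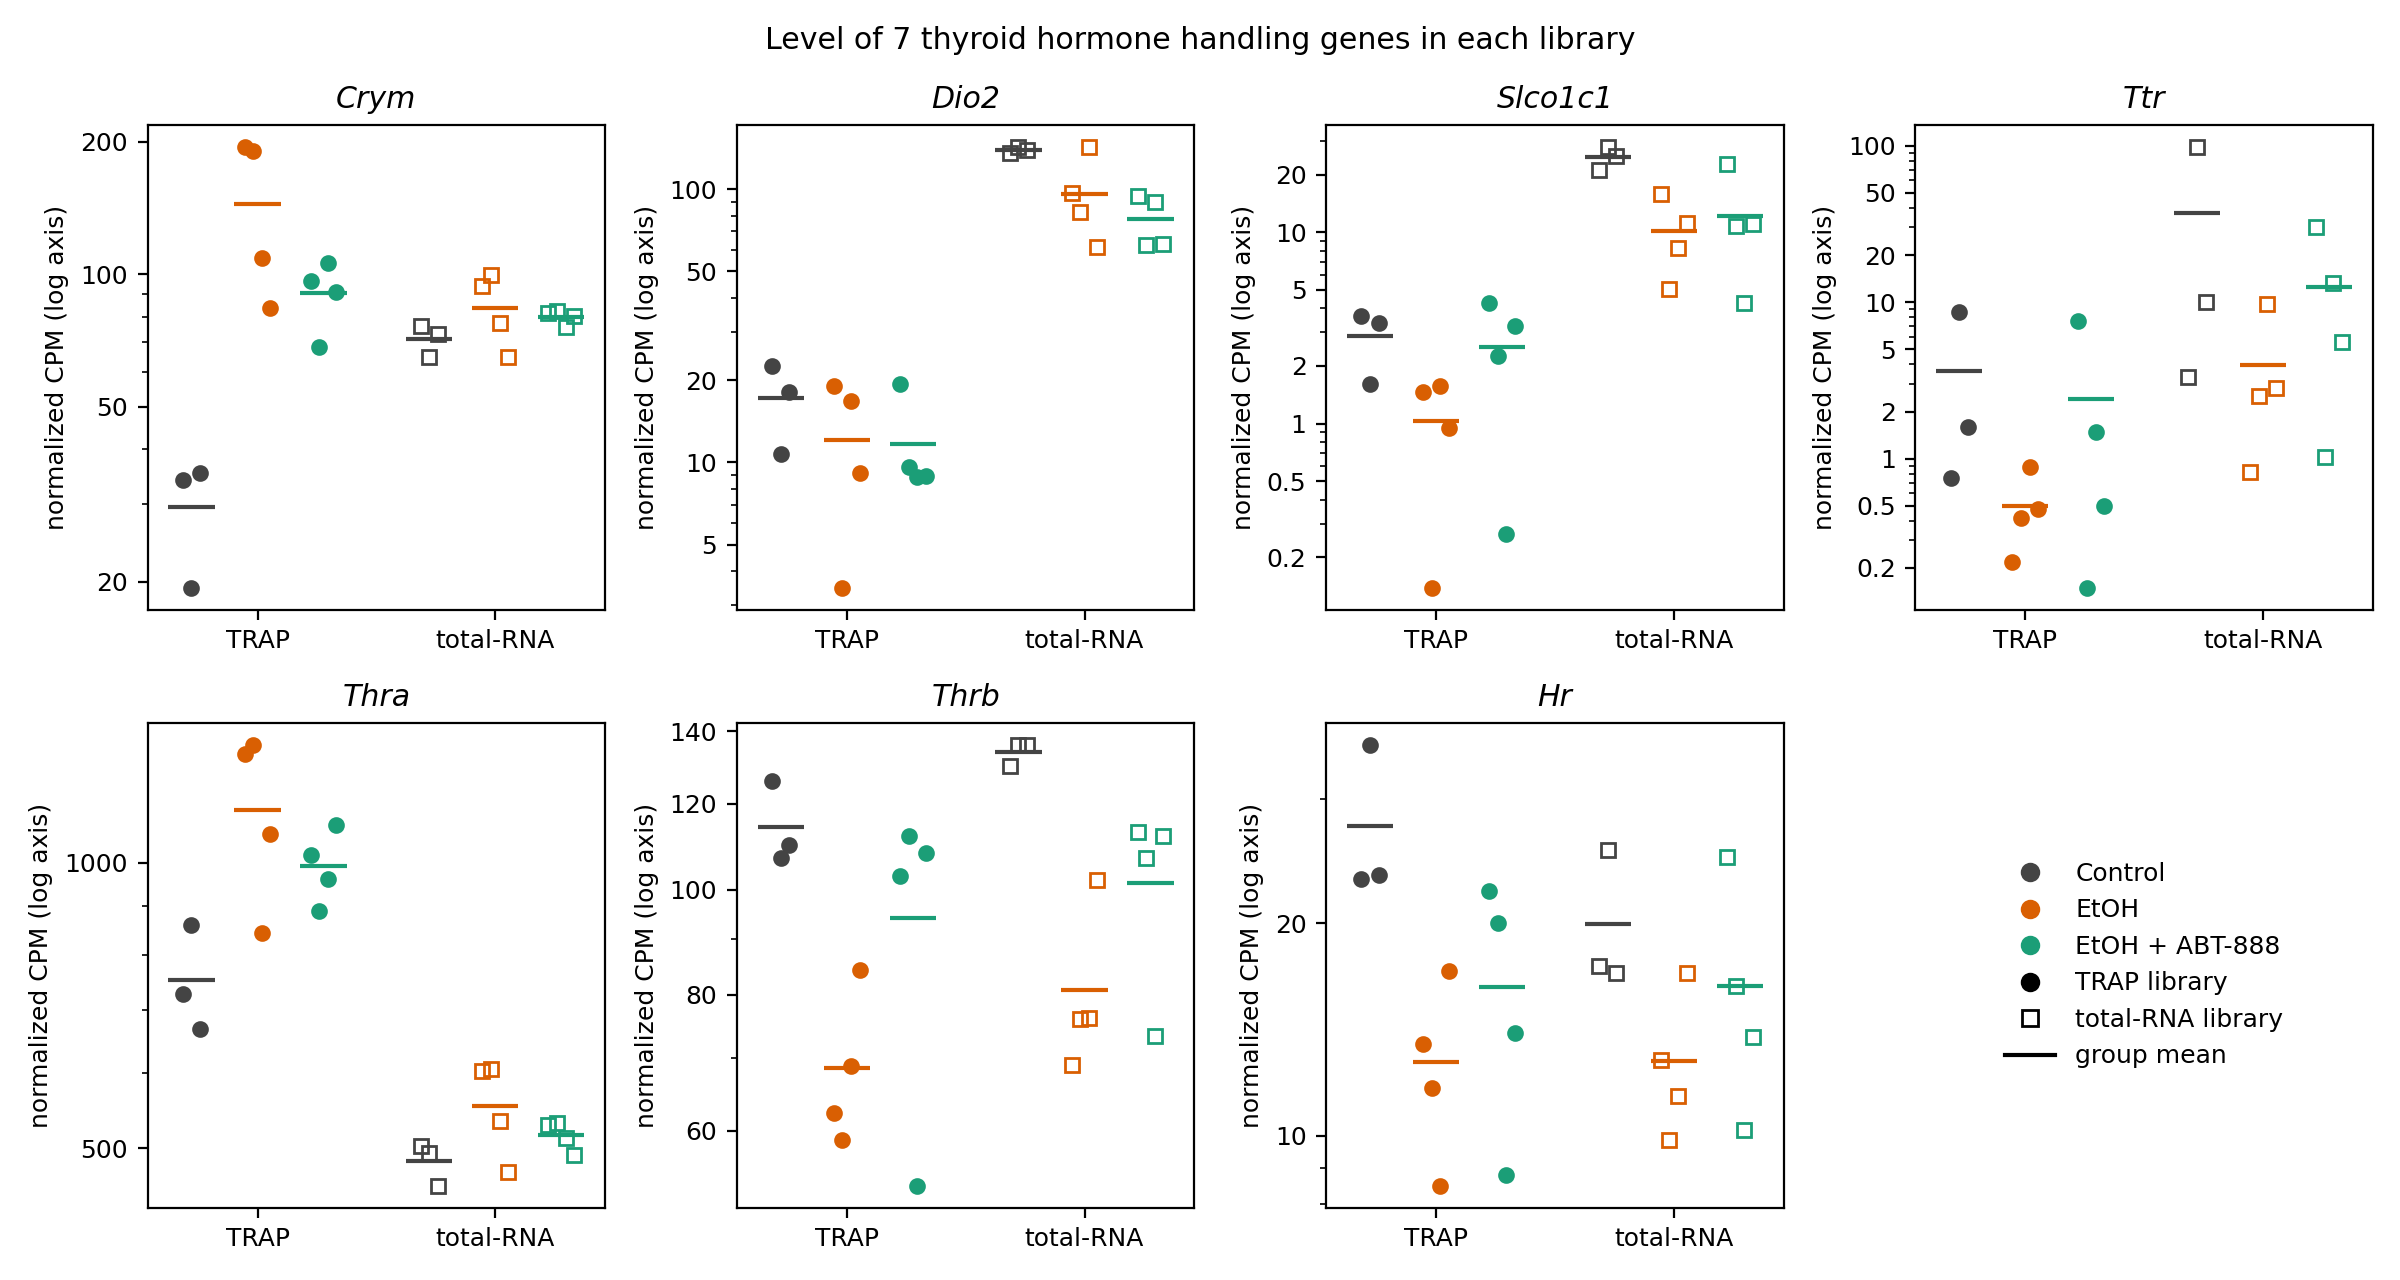
Each panel shows a gene, with the normalized CPM of every library on a log axis, TRAP libraries as filled circles and total-RNA libraries as open squares, coloured by treatment, and the group mean as a line. The Control_TRAP libraries of Crym, at 19.4 to 35.3 CPM, sit below all other Crym libraries, whereas Dio2, Slco1c1 and Ttr sit lower in TRAP than in total-RNA on average in every treatment.

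Crym, the cytosolic T3 reservoir, was lower on ribosomes in Control mice than in the mice given EtOH. Its levels were 34.0, 19.4 and 35.3 CPM in Control_TRAP, 195, 191, 109 and 83.8 CPM in EtOH_TRAP, and 96.3, 68.4, 106 and 91.2 CPM in EtOH + ABT-888_TRAP. The Control_TRAP libraries did not overlap with those of either other TRAP group, while the lowest EtOH library lay within the range of EtOH + ABT-888. In total-RNA the levels were 76.2, 64.8 and 73.3 CPM in Control, 94.2, 99.7, 77.5 and 64.7 CPM in EtOH, and 81.7, 82.3, 75.7 and 80.3 CPM in EtOH + ABT-888. Total-RNA thus stayed within 64.7 to 99.7 CPM over all 11 mice, with Control inside the range of EtOH. The counts behind these levels were 319 to 4115 reads per TRAP library and 1439 to 3214 reads per total-RNA library.

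The ratio of the TRAP level to the total-RNA level of the same mouse summarizes this. For Crym it was 0.447, 0.30 and 0.482 in the 3 Control mice, 2.06, 1.92, 1.40 and 1.29 in the EtOH mice, and 1.18, 0.831, 1.40 and 1.14 in the EtOH + ABT-888 mice. All Control ratios lay below 0.5 and below those of the 8 mice given EtOH. The means were 0.410 ± 0.0966 (SD, n = 3), 1.67 ± 0.379 (SD, n = 4) and 1.14 ± 0.234 (SD, n = 4). The ratios of mice given EtOH with and without ABT-888 overlapped.

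**Figure D2:**
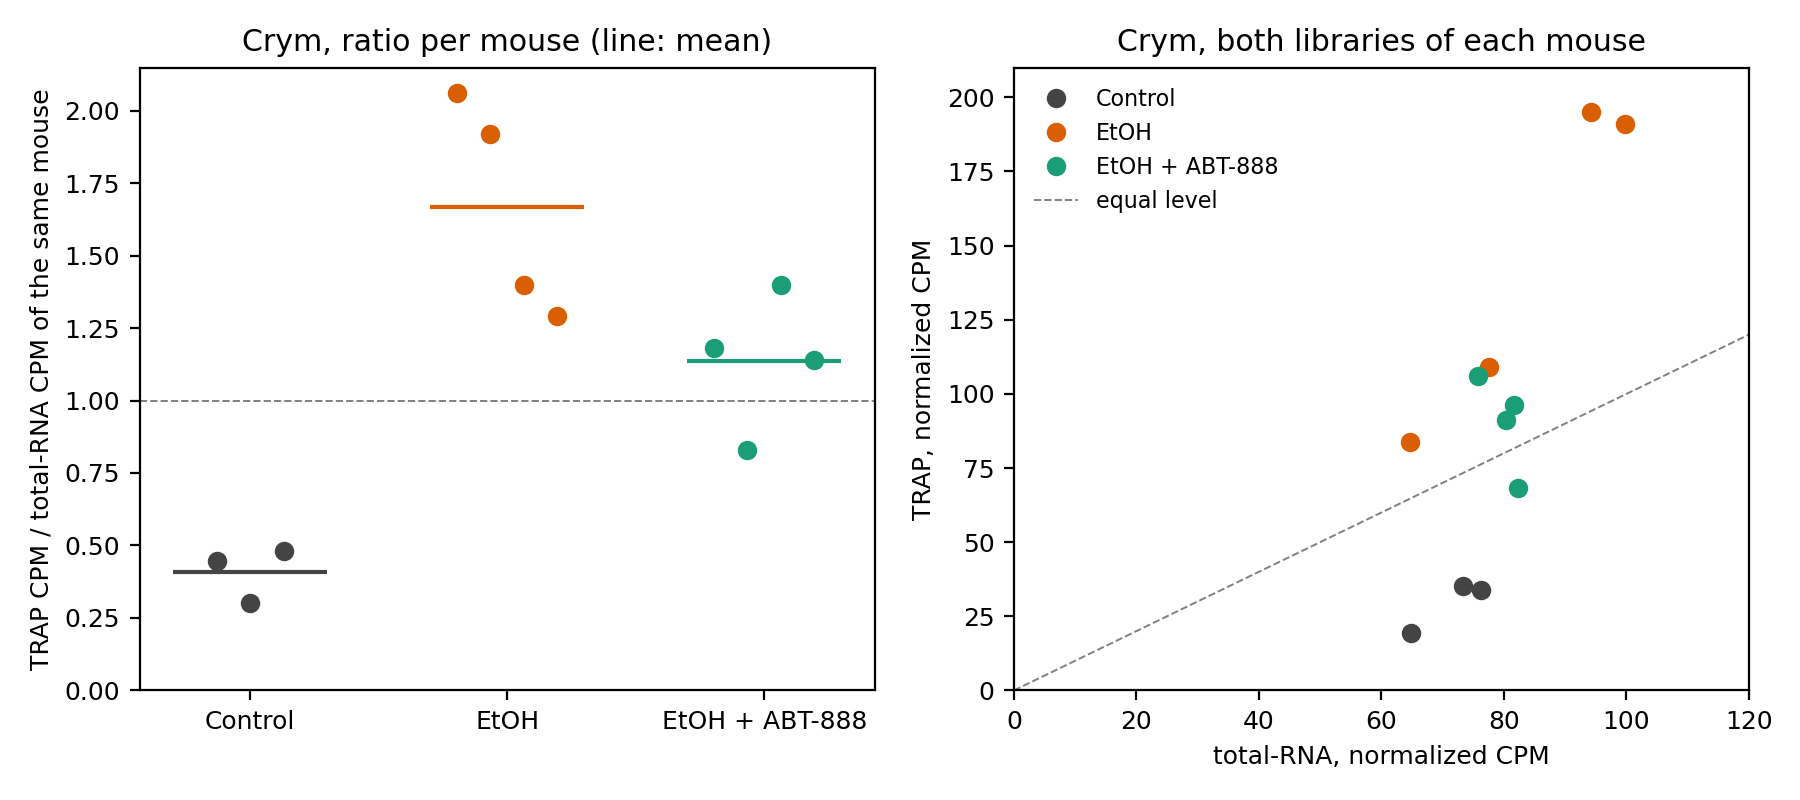
The left panel shows the ratio of the Crym CPM in TRAP to that in total-RNA for each mouse, with the mean of each treatment as a line and equal levels as a dashed line. The right panel sets both levels of each mouse against each other: the 11 mice lie between 64.7 and 99.7 CPM in total-RNA, and between 19.4 and 195 CPM in TRAP.

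In the fit across all genes, Crym in EtOH differed from Control by 2.31 ± 0.32 (SE) on the log2 scale in TRAP and 0.24 ± 0.14 in total-RNA, and the difference between the 2 effects was 2.06 ± 0.35. The corresponding values for EtOH + ABT-888 against Control were 1.63 ± 0.24, 0.17 ± 0.10 and 1.45 ± 0.35, and these share the Control libraries. Against EtOH, EtOH + ABT-888 differed by -0.68 ± 0.25 in TRAP and -0.07 ± 0.14 in total-RNA. These values are descriptions. The contrast of TRAP with total-RNA within EtOH + ABT-888 uses no library of the contrast that chose Crym, and there the log2 difference was 0.18 ± 0.15 (approximate 95% interval -0.12 to 0.48), which did not pass the threshold (edgeR, adjusted p = 0.383). The summed striatal markers were 10111 to 12064 CPM in Control_TRAP, 9842 to 13363 CPM in EtOH_TRAP and 9973 to 13794 CPM in EtOH + ABT-888_TRAP, so that the 3 groups overlapped. The summed pyramidal markers were 2379 to 2643 CPM, 2494 to 3269 CPM and 2207 to 3212 CPM in the same groups, which overlapped too.

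Dio2, which makes T3 in astrocytes, was strongly lower in TRAP than in total-RNA. It stood at 136, 143 and 139 CPM in Control_total-RNA, at 96.6, 82.3, 143 and 61.2 CPM in EtOH_total-RNA, and at 94.7, 62.6, 89.9 and 62.9 CPM in EtOH + ABT-888_total-RNA. Control total-RNA libraries were tightly grouped, all EtOH + ABT-888 libraries lay below them, and 1 EtOH library, that of mouse 8, reached them. The TRAP levels were 22.6, 10.7 and 18.1 CPM in Control, 19, 3.48, 16.8 and 9.11 CPM in EtOH, and 19.3, 9.61, 8.81 and 8.91 CPM in EtOH + ABT-888, with all 3 groups overlapping. TRAP was lower than total-RNA by a log2 fold change of -3.06 ± 0.20 in Control (edgeR, adjusted p = 4.48e-07), -3.01 ± 0.44 in EtOH (adjusted p = 0.000187) and -2.73 ± 0.29 in EtOH + ABT-888 (adjusted p = 3.27e-05), and TRAP was the lower in 11 of 11 mice.

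The astrocyte markers moved with Dio2 across some TRAP libraries. Their summed level was lowest, at 320 CPM, in EtOH_TRAP of mouse 5, which also had the lowest Dio2 level of 3.48 CPM. It was among the highest, at 1299 and 1295 CPM, in Control_TRAP of mouse 1 and EtOH + ABT-888_TRAP of mouse 3, which had the highest Dio2 levels of 22.6 and 19.3 CPM. Other libraries went the other way, with markers at 966 CPM and Dio2 at 8.91 CPM in EtOH + ABT-888_TRAP of mouse 11, and markers at 705 CPM and Dio2 at 16.8 CPM in EtOH_TRAP of mouse 8. The part of these markers in the Dio2 levels was not tested. In total-RNA the summed astrocyte markers ranged over 7575 to 8535 CPM in Control, 7073 to 9123 CPM in EtOH and 7382 to 8816 CPM in EtOH + ABT-888, and the groups overlapped. Slc1a2 made up most of that sum, and single markers differed in direction: mean Aqp4 was 153, 114 and 112 CPM and mean Gfap 78.7, 133 and 108 CPM in the same order.

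Slco1c1, the T4 transporter, was per kb of exon the least abundant member in each TRAP group. In total-RNA it was at 21.1, 28.0 and 25.1 CPM in Control, 15.9, 5.07, 8.23 and 11.2 CPM in EtOH, and 22.7, 10.8, 4.25 and 11.1 CPM in EtOH + ABT-888. Every EtOH library lay below every Control library, whereas 1 EtOH + ABT-888 library, that of mouse 3, lay within the Control range. In TRAP the levels were 3.63, 1.61 and 3.36 CPM in Control, 1.46, 0.139, 1.57 and 0.952 CPM in EtOH, and 4.26, 2.25, 0.264 and 3.24 CPM in EtOH + ABT-888, from 3 to 59 reads per library. The endothelial markers summed to 120 to 142 CPM in Control_total-RNA, 121 to 211 CPM in EtOH_total-RNA and 128 to 214 CPM in EtOH + ABT-888_total-RNA. Of these 7 markers, EtOH against Control in total-RNA called 1 higher (Slc2a1) and 2 lower (Tek and Flt1), and their part in the Slco1c1 levels was not tested. The log2 fold change of TRAP over total-RNA was -3.17 ± 0.25 in Control (edgeR, adjusted p = 1.44e-06), -3.33 ± 0.56 in EtOH (adjusted p = 0.000478) and -2.30 ± 0.66 in EtOH + ABT-888 (adjusted p = 0.016). The last of these did not pass without the total-RNA library of mouse 3 (-1.81, adjusted p = 0.0555).

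Ttr, the T4 carrier made by the choroid plexus, had the largest spread of the members in each pool, as deviations of log2 CPM from the treatment means (SD 1.98 in total-RNA and 1.7 in TRAP). The gene lies on the plus strand of chromosome 18. In total-RNA it was at 3.32, 98.5 and 9.96 CPM in Control, 0.821, 2.52, 9.73 and 2.83 CPM in EtOH, and 30.3, 1.02, 13.2 and 5.57 CPM in EtOH + ABT-888. Mouse 4, a Control, was the highest by far and set the Control mean of 37.2 ± 53.1 CPM (SD, n = 3). In TRAP the levels were 0.747, 8.59 and 1.59 CPM in Control, 0.218, 0.418, 0.885 and 0.476 CPM in EtOH, and 7.54, 0.150, 1.48 and 0.498 CPM in EtOH + ABT-888, again with mouse 4 highest. The log2 fold change of TRAP over total-RNA was -3.25 ± 1.09 in Control (edgeR, adjusted p = 0.023) and -2.96 ± 0.71 in EtOH (adjusted p = 0.00465). In EtOH + ABT-888 it was -2.35 ± 1.02 (adjusted p = 0.0856), and -2.75 ± 0.32 with the mouse as a block (adjusted p = 3.57e-05). It also passed with exactTest (adjusted p = 0.0422) and without the filter on low counts (adjusted p = 0.0156). The Control value was -0.81 without the total-RNA library of mouse 4 (adjusted p = 0.355), and it also lost its call without Control_TRAP of mouse 1 (adjusted p = 0.0804) or of mouse 7 (adjusted p = 0.071). Each of these unpaired fits left out a library and kept its partner from the same mouse. With the mouse as a block the Control value was -3.17 ± 0.22 (edgeR, adjusted p = 1.68e-06). The ratio of TRAP to total-RNA within a Control mouse ranged over 0.0872 to 0.225.

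Other choroid plexus genes peaked in the same library as Ttr for 5 of 10 markers. Of the 10 markers of that tissue, 3 passed the filter on low counts (Kl, Clic6 and Kcnj13), and the summed level was 6.15 to 22.3 CPM in total-RNA and 9.44 to 49.8 CPM in TRAP. Clic6, a chloride channel gene, and Kl carried most of it, with Clic6 at 1.83 to 42.4 CPM and Kl at 0.96 to 8.05 CPM over all libraries, and Clic6 was higher in TRAP than in total-RNA in every mouse. The remaining 7 stayed at or below 1.52 CPM. In Control_total-RNA of mouse 4, where Ttr had 2851 reads, Kl had its highest count of 233 reads, and Sostdc1, Aqp1, Folr1 and Slc4a5 had theirs of 23 to 30 reads. By CPM, the other 5 peaked in other mice, Otx2 and Clic6 in mouse 2, Kcnj13 in mouse 3, and Cldn2 and Kcne2 in mouse 5. The part of carried-over choroid plexus in the Ttr levels was not tested.

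Thra, the receptor gene most widely expressed in neurons, was higher in TRAP than in total-RNA in every mouse. Its TRAP levels were 728, 860.0 and 668 CPM in Control, 1302, 1332, 843 and 1073 CPM in EtOH, and 1020.0, 890.0, 961 and 1095 CPM in EtOH + ABT-888. All 4 EtOH + ABT-888 libraries and 3 of 4 EtOH libraries lay above the Control range. Total-RNA was at 503, 494 and 457 CPM in Control, 603, 606, 534 and 472 CPM in EtOH, and 529, 532, 513 and 492 CPM in EtOH + ABT-888, and these groups overlapped. The log2 fold change of TRAP over total-RNA was 0.62 ± 0.10 in Control (edgeR, adjusted p = 0.000298), 1.02 ± 0.16 in EtOH (adjusted p = 0.000269) and 0.94 ± 0.12 in EtOH + ABT-888 (adjusted p = 0.000107). Nr1d1, which shares exonic bases with Thra on the other strand, had mean levels of 132 CPM in the Control and 180.0 CPM in the EtOH TRAP libraries (SD 13.9 and 43.2), under Thra in both.

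Thrb, the receptor of the T3 feedback loop, was nearly level between the 2 pools. Its total-RNA levels were 130.0, 136 and 136 CPM in Control, 69.0, 76.0, 76.2 and 102 CPM in EtOH, and 113, 107, 73.3 and 112 CPM in EtOH + ABT-888. No library of either EtOH group reached the lowest Control library in total-RNA. The TRAP levels were 126, 107 and 110 CPM in Control, 62.3, 58.8, 68.8 and 84.3 CPM in EtOH, and 103, 112, 53.4 and 108 CPM in EtOH + ABT-888, where EtOH lay below Control throughout. Of the 4 EtOH + ABT-888 libraries, 2 were within the Control range, 1 was just under it and that of mouse 10 was below all EtOH libraries. TRAP over total-RNA was -0.25 ± 0.09 on the log2 scale in Control (edgeR, adjusted p = 0.0339), -0.25 ± 0.16 in EtOH (adjusted p = 0.219) and -0.11 ± 0.23 in EtOH + ABT-888 (adjusted p = 0.739). The Control call was lost in 5 of the 6 fits that left out a library, namely Control_TRAP of mouse 4 or 7 and Control_total-RNA of mouse 1, 4 or 7, with adjusted p of 0.065 to 0.103.

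Hr, the T3-induced corepressor, was at 23.1, 35.8 and 23.4 CPM in Control_TRAP, 13.5, 11.7, 8.50 and 17.1 CPM in EtOH_TRAP, and 22.2, 20, 8.81 and 14 CPM in EtOH + ABT-888_TRAP. The Control libraries lay above all libraries of both other groups. In total-RNA it was at 17.4, 25.4 and 17 CPM in Control, 12.8, 9.86, 11.4 and 17 CPM in EtOH, and 24.8, 16.3, 10.2 and 13.8 CPM in EtOH + ABT-888, and the groups met or overlapped. TRAP over total-RNA was 0.45 ± 0.20 on the log2 scale in Control (edgeR, adjusted p = 0.0739), a difference that passed the threshold with the mouse as a block (0.44 ± 0.11, adjusted p = 0.00462). It was -0.03 ± 0.25 in EtOH (adjusted p = 0.938) and -0.01 ± 0.33 in EtOH + ABT-888 (adjusted p = 0.982), with approximate 95% intervals of -0.51 to 0.46 and -0.66 to 0.64. The Control value also passed without the filter on low counts (0.44, adjusted p = 0.00732), and without Control_TRAP of mouse 7 (0.57, adjusted p = 0.0404) or Control_total-RNA of mouse 4 (0.67, adjusted p = 0.014).

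Set against all genes, the contrast of TRAP with total-RNA called 5 of the 6 tested members in Control, with 1 higher (Thra) and 4 lower (Dio2, Slco1c1, Ttr and Thrb), where 59.9% of the 14072 genes tested were called, 29.5% higher and 30.4% lower. In EtOH it called 4 of 6, with 1 higher and 3 lower, against 50.7% of all genes, 24.3% higher and 26.5% lower. In EtOH + ABT-888, where Crym was also tested, it called 3 of 7, with 1 higher (Thra) and 2 lower (Dio2 and Slco1c1), against 41% of all genes, 19.5% higher and 21.5% lower. These fits did not pair the libraries of a mouse. With the mouse as a block, 6 of 6, 4 of 6 and 4 of 7 members were called, beside 8788, 8276 and 7642 of the 14072 genes. With so few members, these counts are not read as differing from the background shares. The medians over the 6 members other than Crym were -1.66, -1.61 and -1.21 on the log2 scale, and those over all genes were 0.02, 0.03 and 0.05.

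**Figure D3:**
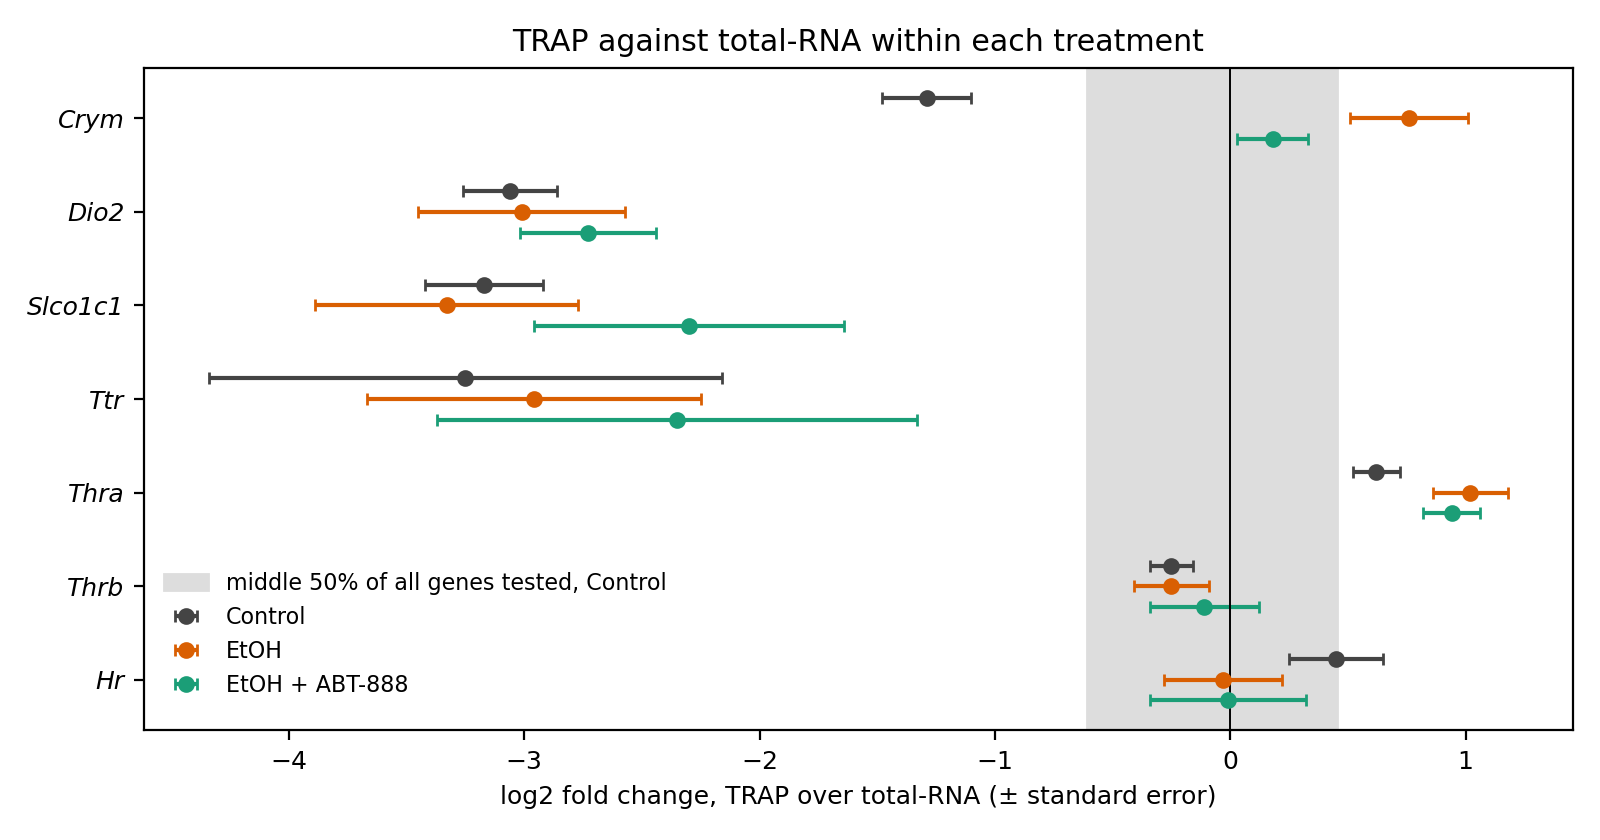
The log2 fold change of TRAP over total-RNA is shown for each gene on the horizontal axis, with its standard error, for the 3 treatments by colour, and the grey band spans the middle 50% of all genes tested in Control. Dio2 and Slco1c1 lie left of the band in all 3 treatments, Thra lies right of it, and Crym moves from -1.29 in Control to 0.76 in EtOH and 0.18 in EtOH + ABT-888.

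The effect of EtOH on the hormone genes, given as a description, ran downward for 5 of the 7 members in both pools. The medians over all genes were 0.0173 in TRAP and 0.0011 in total-RNA on the log2 scale. With so few members, this count is not read as differing from all genes. The approximate 95% interval of Dio2 in TRAP ran from -1.36 to 0.37. In TRAP the log2 fold change against Control was -2.82 ± 0.76 for Ttr, -1.46 ± 0.64 for Slco1c1, -1.10 ± 0.25 for Hr, -0.72 ± 0.16 for Thrb and -0.50 ± 0.44 for Dio2, and 0.62 ± 0.17 for Thra. In total-RNA it was -3.25 ± 0.91 for Ttr, -1.29 ± 0.28 for Slco1c1, -0.65 ± 0.20 for Hr, -0.73 ± 0.13 for Thrb and -0.54 ± 0.21 for Dio2, and 0.19 ± 0.11 for Thra. Ttr was the least stable of these, and its total-RNA value was -0.77 without the library of mouse 4. The difference between the 2 effects was 2.06 ± 0.35 for Crym, and 0.41 for Thra, 0.38 for Ttr, 0.04 for Dio2, -0.00 for Thrb, -0.19 for Slco1c1 and -0.47 for Hr. It passed the threshold for 3 of all genes (0.0213%, with 0.0142% higher and 0.00711% lower), and for 14 with the mouse as a block. Microglia markers moved with EtOH in total-RNA, summing to 330.0 to 337 CPM in Control and 130.0 to 191 CPM in EtOH, with 5 of 6 lower, and to 130.0 to 273 CPM in EtOH + ABT-888, and their part in these values and in those of EtOH + ABT-888 against Control was not tested.

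For EtOH + ABT-888 against Control, 0 of 6 tested members were called in TRAP by edgeR's quasi-likelihood test, where 0.476% of all genes were called (0.185% higher, 0.291% lower), and 0 of 6 in total-RNA, where 0.263% were called (0.178% higher, 0.0853% lower). At an unadjusted p under 0.05 there were 2 members in TRAP, Thra at 0.41 ± 0.15 and Hr at -0.75 ± 0.30 on the log2 scale, beside Dio2 at -0.55 ± 0.34, Thrb at -0.26 ± 0.23 and Slco1c1 at -0.19 ± 0.69, which were not under it, and 3 in total-RNA, Dio2 at -0.84 ± 0.16, Slco1c1 at -1.02 ± 0.40 and Thrb at -0.40 ± 0.15. Thra was at 0.09 ± 0.09 and Hr at -0.29 ± 0.27 in total-RNA. Of all genes, 12.1% and 15.9% were under that cutoff. Dio2 in total-RNA was closest to the threshold, with an adjusted p of 0.0547 by edgeR's quasi-likelihood test. It passed with edgeR's exactTest (adjusted p = 0.000271), with DESeq2 (adjusted p = 0.000476) and without the filter on low counts (adjusted p = 0.000885), and all 4 libraries of that group were under all 3 Control libraries. Slco1c1 in total-RNA passed without the filter (-1.0, adjusted p = 0.0422) and without EtOH + ABT-888_total-RNA of mouse 3 (-1.5, adjusted p = 0.0231). Without that library (adjusted p = 0.00876) or that of mouse 10 (adjusted p = 0.0246), Dio2 passed as well. Ttr was at -0.59 ± 0.97 in TRAP and -1.57 ± 1.06 in total-RNA, and both signs turned without the Control libraries of mouse 4, to 1.00 and 0.90.

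Adding ABT-888 to EtOH called 0 of 6 tested members in either pool by edgeR's quasi-likelihood test, exactTest or DESeq2, and 0% of all genes by the quasi-likelihood test. At an unadjusted p under 0.05 the quasi-likelihood test gave 1 member in TRAP, Ttr at 2.22 ± 0.93 (approximate 95% interval 0.40 to 4.03), and 0 in total-RNA, against 136 and 269 of all genes. Leaving out a library gave 0.56 to 2.65 for Ttr in TRAP. Mouse 3 of EtOH + ABT-888_TRAP was at 7.54 CPM, the others of that group at 0.150 to 1.48 CPM and EtOH_TRAP at 0.218 to 0.885 CPM. Thrb was at 0.45 ± 0.23 in TRAP and 0.33 ± 0.16 in total-RNA, and Slco1c1 at 1.28 ± 0.79 and 0.27 ± 0.43. Hr was at 0.35 ± 0.31 and 0.35 ± 0.25, Thra at -0.20 ± 0.16 and -0.10 ± 0.11, and Dio2 at -0.05 ± 0.43 and -0.31 ± 0.23. Ttr in total-RNA was at 1.67 ± 0.82, and at 0.75 to 2.62 leaving out a library. The intervals were wide: that of Slco1c1 in TRAP ran from -0.27 to 2.82. The effect of EtOH + ABT-888 against Control differed between pools by 0.96 ± 1.56 for Ttr, 0.82 ± 0.87 for Slco1c1, 0.31 ± 0.20 for Thra, 0.30 ± 0.56 for Dio2, 0.12 ± 0.29 for Thrb and -0.48 ± 0.44 for Hr. By the quasi-likelihood test none of the 6 passed the threshold, and 0 were under an unadjusted p of 0.05. Over all genes that test called 0% and DESeq2 called 4 genes.

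The level in TRAP followed the level in total-RNA of the same mouse for some members. Deviations from the treatment mean on the log2 scale were compared over the 11 mice by an exact permutation test, two-sided, that exchanged mice within treatments in all 3456 ways, and p-values were adjusted over the 7 members. For Ttr, Pearson's r was 0.944 (exact permutation p = 0.000289, the smallest the design can give, adjusted p = 0.00203), Spearman's rho was 0.964 (exact permutation p = 0.000289, adjusted p = 0.00203), and r was 0.869 without mice 4 and 6. For Hr, r was 0.886 (exact permutation p = 0.00434, adjusted p = 0.0152), rho was 0.845 (exact permutation p = 0.00897, adjusted p = 0.0314), and r was 0.849 without mice 3 and 9. Mice with more of these mRNAs in whole tissue therefore had more of them in the pull-down. For Crym r was 0.83, and 0.699 without mice 9 and 5, given with no test because most of these mice were used to choose it. By treatment, r for Crym was 0.959 in Control and 0.982 in EtOH, but -0.722 in EtOH + ABT-888. Slco1c1 did not pass after adjustment (r = 0.825, exact permutation p = 0.0258, adjusted p = 0.0516). Thrb, at r = 0.892 (exact permutation p = 0.0463, adjusted p = 0.0648), rested on mice 9 and 10, without which r was -0.309. For Dio2 and Thra r was 0.476 and 0.47 (exact permutation p = 0.345 and 0.41, adjusted p = 0.402 and 0.41). The TRAP and total-RNA libraries of a mouse came from 1 homogenate.

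**Figure D4:**
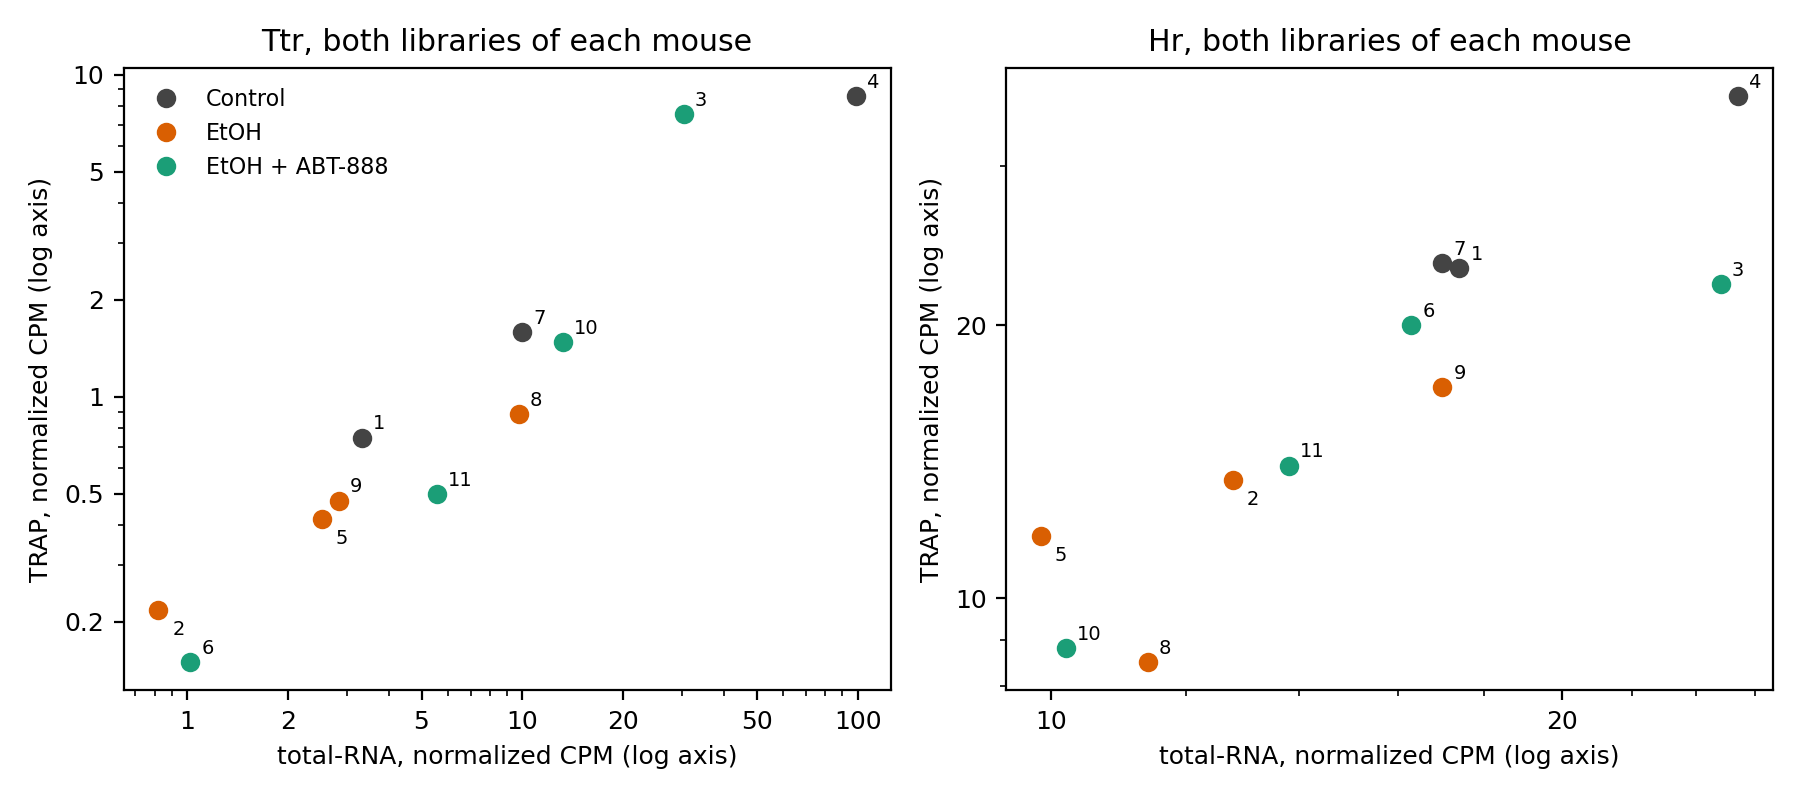
Normalized CPM in TRAP is set against that in total-RNA for Ttr and Hr on log axes, with each point labelled by the number of the mouse and coloured by treatment. For Ttr the 11 mice span 0.821 to 98.5 CPM in total-RNA and 0.150 to 8.59 CPM in TRAP, with mouse 4 highest in both.

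Beyond the 7 genes, a list of 37 further genes of hormone transport, deiodination, receptor partners, cofactors and T3 response was examined. Of these, 35 passed the filter. The other deiodinases did not: Dio1 had 4 reads in 2 libraries and Dio3, which inactivates T3, had 150 reads in 19 libraries. TRAP differed from total-RNA for 25 of 35 in Control (11 higher and 14 lower), 19 of 35 in EtOH (9 and 10) and 17 of 35 in EtOH + ABT-888 (8 and 9), beside the 59.9%, 50.7% and 41% of all genes. With the mouse as a block these were 26, 21 and 21 of 35, beside 8788, 8276 and 7642 of all genes. The median over the list was -0.06, 0.06 and 0.14 on the log2 scale.

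Like Slco1c1, most transporters of the list were lower in TRAP. In Control this held for 5 of 6 by edgeR's quasi-likelihood test, where 30.4% of all genes were lower, led by Slco1a4, another organic anion transporter, at -3.36 ± 0.21 (adjusted p = 2.73e-07). Slc7a8 was at -0.00 ± 0.12 (adjusted p = 0.98). Among the retinoid X receptors that pair with the T3 receptors, Rxrg was higher by 3.57 ± 0.13 (adjusted p = 3.65e-08) and Rxrb by 1.58 ± 0.21 (adjusted p = 5.4e-05), and Rxra was at -0.04 ± 0.13 (adjusted p = 0.826). Of the 14 T3-responsive genes, 12 were called, 8 higher and 4 lower, where 59.9% of all genes were called. Rasd2, known from striatum, was higher by 3.17 ± 0.14 (adjusted p = 6.27e-08) and Reln by 1.62 ± 0.10 (adjusted p = 3.7e-07), while the myelin gene Mbp was lower, at -1.84 ± 0.10 (adjusted p = 1.32e-07). Nrgn was higher by 1.20 ± 0.14 (adjusted p = 2.38e-05) and Klf9 by 0.92 ± 0.10 (adjusted p = 1.45e-05), and the neurofilament gene Nefh was lower, at -1.53 ± 0.12 (adjusted p = 1.09e-06). Corepressors and coactivators stayed within -0.36 to 0.46 in Control.

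**Figure D5:**
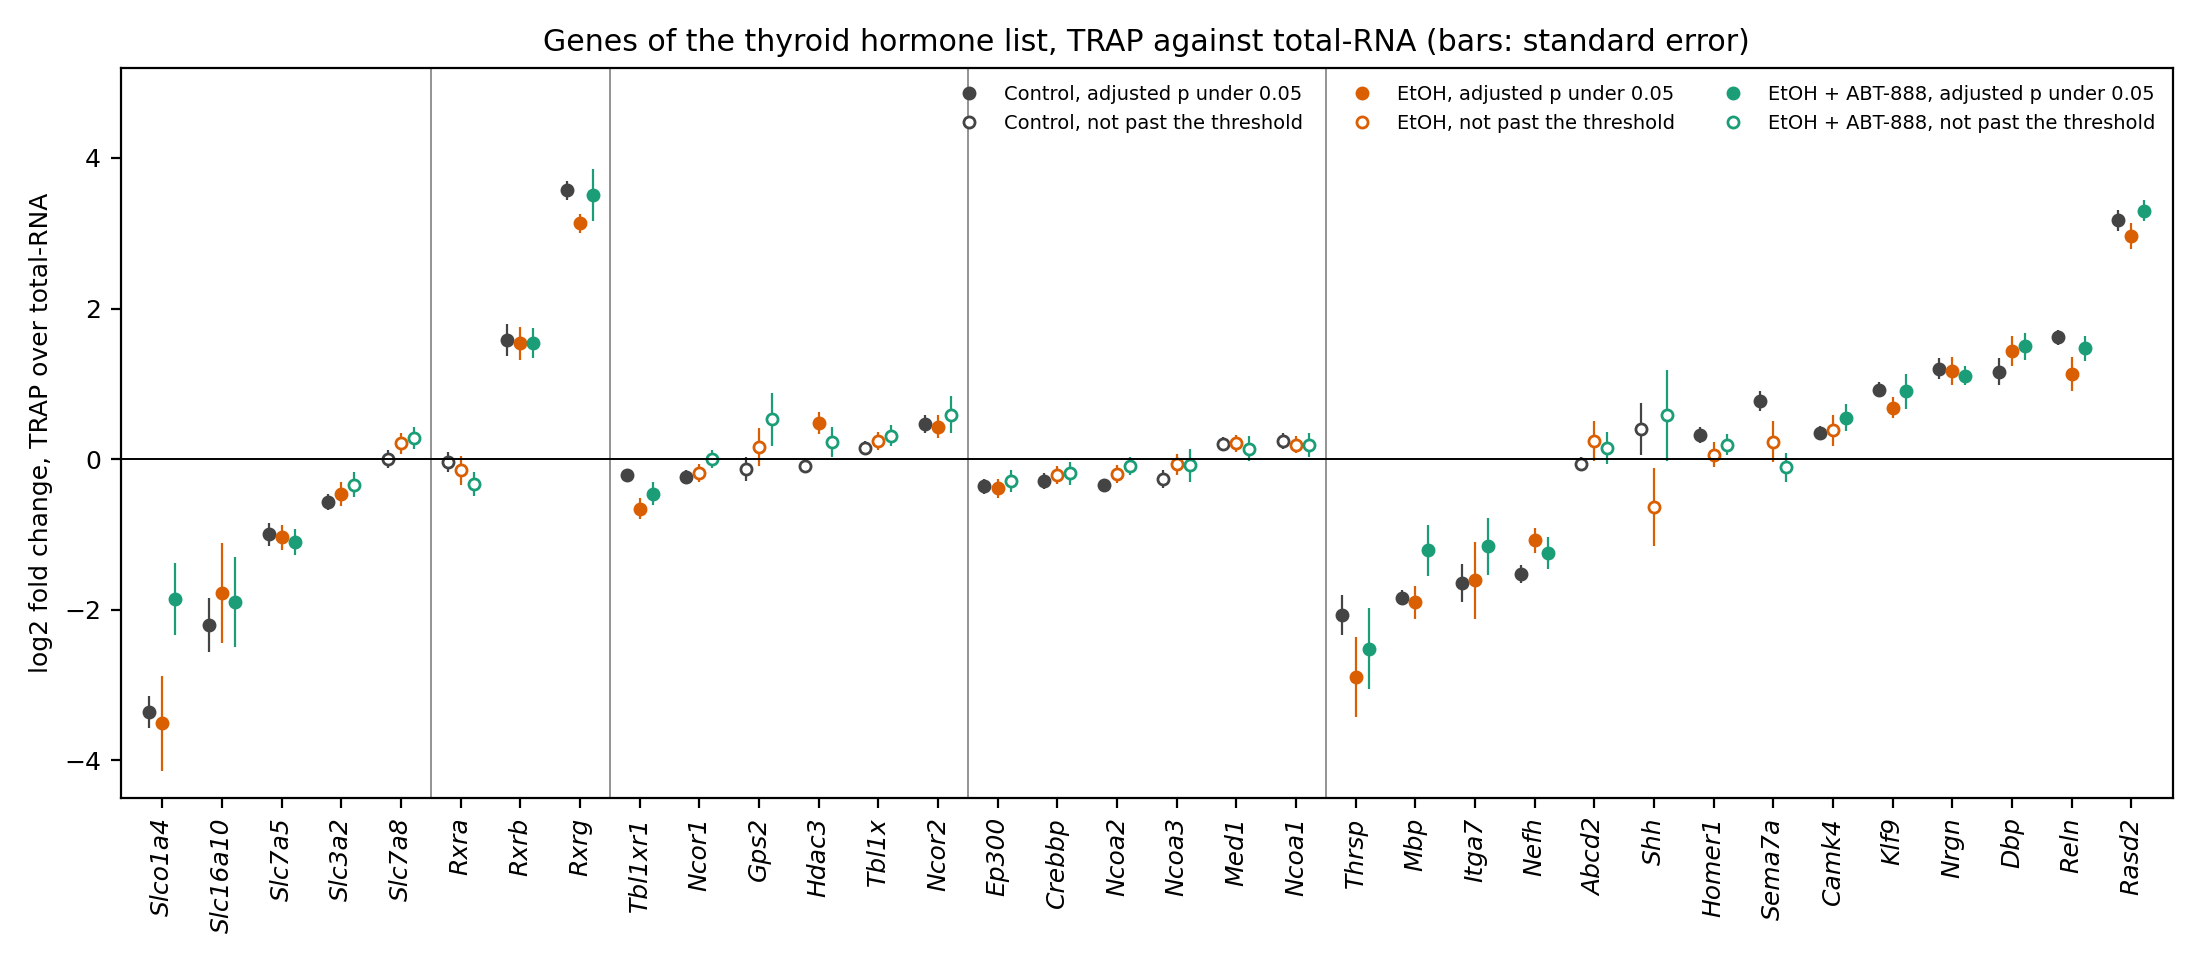
The log2 fold change of TRAP over total-RNA, with its standard error, is shown for genes of the wider list that passed the filter, ordered by group (transporters, retinoid X receptors, corepressors, coactivators, T3-responsive genes) and coloured by treatment, with filled points past the threshold. Rxrg and Rasd2 lie highest and Slco1a4 lowest in Control.

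EtOH against Control called 4 of the 35 genes in TRAP, where 5.24% of all genes were called (2.77% higher, 2.47% lower), and 6 of 35 in total-RNA, where 17.6% were called (9.04% higher, 8.6% lower). In TRAP, 1 rose and 3 fell. Rxrg fell by 0.91 on the log2 scale (edgeR, adjusted p = 0.00637), Homer1, a synaptic scaffold gene, fell by 0.64 (adjusted p = 0.0481), and Sema7a, a guidance cue gene, fell by 1.37 (adjusted p = 0.0176). In total-RNA, Klf9, an immediate T3 target, rose by 0.57 ± 0.12 (adjusted p = 0.0092) and Rxra rose by 0.50 ± 0.12 (adjusted p = 0.0152). Rxrg, Homer1 and Sema7a fell there too, by 0.49, 0.40 and 0.85 (adjusted p = 0.023, 0.0413 and 0.0023), and Nrgn, a postsynaptic calmodulin-binding gene, fell by 0.58 (adjusted p = 0.0139). EtOH + ABT-888 against Control called Sema7a in TRAP (-1.40 ± 0.18, adjusted p = 0.0206), where 0.476% of all genes were called, and 0 of 35 genes in total-RNA, where 0.263% were. In total-RNA 8 of the 35 were under an unadjusted p of 0.05, as were 15.9% of all genes, and exactTest and DESeq2 each called 2. EtOH + ABT-888 against EtOH called 0 of 35 in either pool by the quasi-likelihood test, exactTest and DESeq2, with 0 and 2 under an unadjusted p of 0.05 by the first of these, as were 0.966% and 1.91% of all genes. Neither difference between pools called any of the 35 by the quasi-likelihood test or DESeq2, with 3 (EtOH) and 1 (EtOH + ABT-888) under an unadjusted p of 0.05, as were 4.87% and 3.38% of all genes. The Sema7a call was lost without Control_TRAP of mouse 1, 4 or 7 or EtOH + ABT-888_TRAP of mouse 6 or 11, each of which left 0 calls, and there were 2 calls without EtOH + ABT-888_TRAP of mouse 3 or 10. For EtOH the counts were fragile too. A single fit over all 22 libraries gave 0 calls in total-RNA, and leaving out a library gave 0 to 5 calls in TRAP, with 0 without Control_TRAP of mouse 4, 1 without that of mouse 1 or 7 and 2 without EtOH_TRAP of mouse 2 or 5. In total-RNA it gave 2 without Control of mouse 1 or 4 and 10 without EtOH of mouse 9.

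Genes whose log2 CPM followed the members most closely were ranked among 14050 named genes over the 11 libraries of a pool. For Crym in TRAP these were Pltp (Pearson's r = 0.969), which encodes a phospholipid transfer protein, Wfs1 (0.965), an endoplasmic reticulum gene, Plekhm2 (0.96), Ets2 (0.957) and Ubxn1 (0.953). In deviations from the treatment means the same 5 were at 0.79 to 0.905. For Crym in total-RNA they were Trmu (0.936), Mrpl10 (0.921), Arpc1a (0.91), Ifnar1 (0.908) and Srd5a3 (0.908). Hr was followed in TRAP by Mtx3 (0.985), Slc36a1 (0.967) and Wwc1 (0.955), and Thra by Trafd1 (0.965), Arhgef17 (0.954) and Slc2a3 (0.944). In total-RNA the closest gene was Sema4a for Slco1c1 (0.983), Map6d1 for Thrb (0.975), Rpsa for Dio2 (0.945) and Sipa1l2 for Ttr (0.925). The libraries share treatments and depth, and with so many genes ranked high values arise readily, so these are descriptions. Between members, the closest pairs within treatments were Crym with Thra (0.844) and Slco1c1 with Hr (0.836), both in total-RNA.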

How the data were processed

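RNA of the PFC of 11 mice was sequenced as paired reads from TRAP and total-RNA libraries (22 in all) after rRNA depletion. The authors aligned reads to mm10 with STAR and counted them per Ensembl gene with featureCounts, and the deposited values are raw counts. Versions, the strand setting and the handling of multi-mapping reads were not given in the sources used here. Gene names and positions came from GENCODE M21, which held 38872 of 39056 identifiers.

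Genes with at least 500 counts in all and detected in at least 3 libraries were tested (14072 genes). Counts were scaled by the trimmed mean of M-values and tested with edgeR 4.0.16 in R 4.3.3 (quasi-likelihood test, Benjamini-Hochberg adjustment over all genes, threshold 0.05), each comparison on its own groups. Approximate 95% intervals follow from the SE under a normal approximation. Counted reads were 6570957 to 22002618 per TRAP library and 22132534 to 32421392 per total-RNA library, so low genes such as Slco1c1 and Ttr rested on few reads in TRAP.

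TRAP and total-RNA libraries came from the same mice, and their replicate numbers were assigned by the order of the sample titles, which runs through the treatments alike in both pools. Their deviations from group means correlated within each mouse so matched (r = 0.102 to 0.622, mean 0.298, n = 11 mice). Mice, not libraries, are the replicates. No batch was given in the labels.

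The 7 members and all gene lists were chosen with earlier results of these data known. All members were named in every comparison. Genes of the wider list were named where called, up to 10 with the smallest p where more were called, and in the contrast of pools for Control only, and Slc7a8 and Rxra in the contrast of pools were named after their values were seen. Alternatives were edgeR's exactTest, DESeq2 1.42.0, RLE size factors, no filter on low counts, a single fit over all 22 libraries, the mouse as a block and leaving out each library in turn. Values of 1 gene of the wider list, which the counts include, are not reported here.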

Additional observations from a re-analysis of the deposited data

Results flagged for a closer look

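In EtOH + ABT-888_TRAP, Dio2 stood at 19.3 CPM in mouse 3, apart from the other 3 libraries at 8.81 to 9.61 CPM. Thrb stood apart in mouse 10 in both pools of EtOH + ABT-888, at 53.4 CPM in TRAP, where the other 3 libraries were at 103 to 112 CPM, and at 73.3 CPM in total-RNA, where they were at 107 to 113 CPM. The gap to the nearest library made up more of the group's range than Dixon's 95% critical value for 4 samples. These were 3 of 28 groups of 4 libraries examined, and chance flags about 1 in 20 groups. The effect of EtOH on Crym differed between TRAP and total-RNA by 2.06 ± 0.35 on the log2 scale, which is the difference that Crym was chosen for and is given as a description.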

How the results depend on the processing

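Counts of calls kept within 1.5 times their value in 78 of 90 recomputations with another tool, scaling or filter, the single fit or the mouse as a block. They did so in 114 of 132 that left out a library. For the wider list, EtOH against Control called 7 genes in TRAP with DESeq2 and 0 in total-RNA in a single fit over all libraries, and leaving out a library gave 0 to 5 and 2 to 10. EtOH + ABT-888 against Control called 2 list genes in TRAP with exactTest, 3 with DESeq2, 4 without the filter and 2 in the single fit (0 to 2 leaving out a library), and in total-RNA 2 with each of exactTest, DESeq2 and no filter (0 to 4). Of the members it called 1 in total-RNA with exactTest or DESeq2 and 2 without the filter (0 to 2). Over all genes, EtOH against Control in TRAP called 737 genes, against 1372 by exactTest and 1523 by DESeq2. For EtOH + ABT-888 against Control these counts were 67, 318 and 420 in TRAP and 37, 544 and 621 in total-RNA. The difference in EtOH effect between pools called 3, and 16 by DESeq2. The causes were not tested.

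Directions turned in some fits that left out a library, all for values that had not passed the threshold. TRAP over total-RNA ranged over -0.21 to 0.15 for Hr in EtOH, -0.21 to 0.27 for Hr and -0.24 to 0.08 for Thrb in EtOH + ABT-888. EtOH + ABT-888 against Control ranged over -0.57 to 0.22 for Slco1c1 in TRAP, and over -2.21 to 1.0 in TRAP and -2.49 to 0.9 in total-RNA for Ttr. Against EtOH it ranged over -0.39 to 0.23 for Dio2 in TRAP and -0.21 to 0.58 for Slco1c1 in total-RNA. The difference of that effect between pools ranged over -0.06 to 0.53 for Dio2, -0.01 to 0.32 for Thrb and -1.51 to 2.57 for Ttr. For Ttr the difference in EtOH effect between pools, a description, ranged over -2.1 to 1.99, with the lowest value without the total-RNA library of mouse 4. The Thrb difference between pools in Control was lost in the single fit (-0.23, edgeR adjusted p = 0.416). With the mouse as a replicate block, Hr in Control (0.44, adjusted p = 0.00462) and Ttr in EtOH + ABT-888 (-2.75, adjusted p = 3.57e-05) gained a call in the contrast of pools, as Hr did without the filter (adjusted p = 0.00732) and Ttr with exactTest (adjusted p = 0.0422) and without the filter (adjusted p = 0.0156), and the block changed no other call of a member. With 3 or 4 libraries a group and few reads, the low genes Slco1c1 and Ttr in TRAP limit what could be detected.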
